A study of Rattus norvegicus with 36 samples.

Results

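The microRNAs miR-199a-5p, miR-199a-3p and miR-214-3p were followed in the rat thoracic aorta across 3 strains and 2 salt diets. They were chosen by name as the products of the miR-199a and miR-214 hairpins, and they make up 3 of the 835 small RNAs listed in the deposited table. The study set the Dahl salt-sensitive rat (SS) beside congenic strains in which a piece of chromosome 2 comes from the Brown Norway (BN) rat on an SS background, in a search for genes that act on vascular inflammation. The BN piece is distal in S2Ba and lies mid-chromosome in S2Bb. Male rats aged 4 to 6 weeks were put on a normal-salt diet or on a high-salt diet with 4% NaCl until they were 12 to 13 weeks old, and small RNAs from their descending thoracic aorta were sequenced.

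The groups analysed were SS on normal salt (n = 5) and on high salt (n = 5), S2Ba on normal salt (n = 5) and on high salt (n = 5), and S2Bb on normal salt (n = 6) and on high salt (n = 6). All 6 groups share the SS background, and the congenic strains differ from SS by the BN segment of chromosome 2. No group is the BN strain itself, and the labels give no blood pressure. The labels name no litter, batch or pairing, and the animal numbers of SS and S2Ba rats on normal salt all lie below those on high salt, so number order and diet cannot be told apart in these strains. The p-values below set differences and relations against the spread between these samples. For limma that spread was estimated over all 6 groups together.

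MicroRNAs are short RNAs cut from a hairpin precursor. One arm or both arms of a hairpin can be loaded into the silencing complex, where the seed near the 5′ end pairs with target messenger RNAs and lowers their translation and stability. In mouse and human, miR-199a and miR-214 are processed from 1 long noncoding transcript, DNM3OS, which runs antisense within an intron of the dynamin gene DNM3, and they are abundant in fibroblasts and other mesenchymal cells. Members of the cluster have been linked to fibrosis and to the response of muscle cells to low oxygen: miR-199a-5p represses caveolin in human lung fibroblasts and a hypoxia-inducible factor in rat heart muscle cells, miR-199a-3p promotes division of rodent heart muscle cells, and miR-214 lowers the sodium-calcium exchanger in mouse heart.

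The mature sequences are shown because the 3 microRNAs come from neighbouring precursors but have distinct seeds and different base compositions. They are given 5′ to 3′ from RefSeq on the rat build GRCr8, with the seed (bases 2 to 8) in capitals.
miR-199a-5p: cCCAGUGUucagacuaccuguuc
miR-199a-3p: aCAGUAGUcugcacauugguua
miR-214-3p: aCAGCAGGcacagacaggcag

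On the plus strand of chromosome 13, miR-199a-5p lies at chr13:77116255-77116277 and miR-199a-3p at chr13:77116294-77116315, with 16 bases between these arms of the Mir199a2 hairpin. The mature miR-214-3p lies at chr13:77121713-77121733 in Mir214, 5397 bases after the end of miR-199a-3p. Both hairpins lie inside the span of Dnm3, on the strand opposite to that gene, and Mir3120 is annotated over Mir214. The cluster is therefore on chromosome 13 and not on chromosome 2, where the congenic strains carry BN sequence. No other mature sequence in the RefSeq table carried any of the 3 seeds, so the 3 microRNAs have a seed each and no close relative listed. The sequences are 23, 22 and 21 bases long in the order miR-199a-5p, miR-199a-3p and miR-214-3p, and their G and C content is 52.2%, 40.9% and 61.9%. In mouse and human another locus gives the same miR-199a sequences, and reads of a mature sequence do not tell loci apart; the RefSeq table used here lists 1 rat locus for each.

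Signals are given as nRPM, the normalized reads per M reads that the authors deposited, where M stands for mega. Library depth, recovered from the table, ran from 2.31 M to 42.4 M reads with a median of 19.4 M. SS high-salt replicate 2 (2.31 M) and SS normal-salt replicate 6 (6.56 M) were the shallowest. The labels describe 36 samples, of which 2 have no column in the table. Replicate numbers were assigned here and are not part of the labels. On the normal-salt diet, 1 pair of columns, numbered SS replicate 1 and S2Ba replicate 4, is the same library by its values. Both were left out of the 32 libraries analysed here. The tissue label matched its defining smooth muscle microRNA, miR-143-3p, which averaged 551217 nRPM, while the skeletal muscle microRNA miR-206-3p was at 0 in 28 libraries and the neuronal miR-124-3p at 0 in 17. Some other names on the striated muscle and nerve lists were present in every library, among them miR-133a-3p at a mean of 603 nRPM and miR-338-3p at 24.5 nRPM. In bulk tissue, fewer cells of a type and less RNA per cell cannot be told apart.

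The 3 microRNAs were detected in every library at very different levels. Mean miR-199a-3p signal was 4171 ± 621 nRPM (SD, n = 32), the 20th highest mean in the table, with a lowest value of 2395, a median of 4097 and a highest value of 5434 nRPM. Its arm partner miR-199a-5p averaged 630 ± 94.9 nRPM (SD, n = 32) and was 45th, with values from 362 to 777 nRPM. miR-214-3p averaged 87.3 ± 34.4 nRPM (SD, n = 32) and was 93rd, with values from 26.5 to 195 nRPM.

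The rarest of the 3 was also the most variable. The coefficient of variation over the libraries was 14.9% for miR-199a-3p, 15.1% for miR-199a-5p and 39.4% for miR-214-3p, whose highest library had 7.38-fold the signal of its lowest. The smallest number of reads behind any of these values was 7638 for miR-199a-3p, 2215 for miR-199a-5p and 459 for miR-214-3p. Neighbours at the same level varied more and less than the members: beside miR-199a-3p, the smooth muscle microRNA miR-145-5p at a mean of 4171 nRPM had a coefficient of variation of 28.9%, and beside miR-214-3p, miR-93-5p at 88.6 nRPM had 12.8%.

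The opposite arm of the miR-214 hairpin was almost absent. miR-214-5p had 57 reads over all 32 libraries against 50995 for miR-214-3p, and it was at 0 in 13 libraries, among them all 5 SS high-salt libraries. The overlapping miR-3120 had 1 read in all. Neither entered the tests. At the miR-199a hairpin, in contrast, both arms were abundant.

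**Figure D1:**
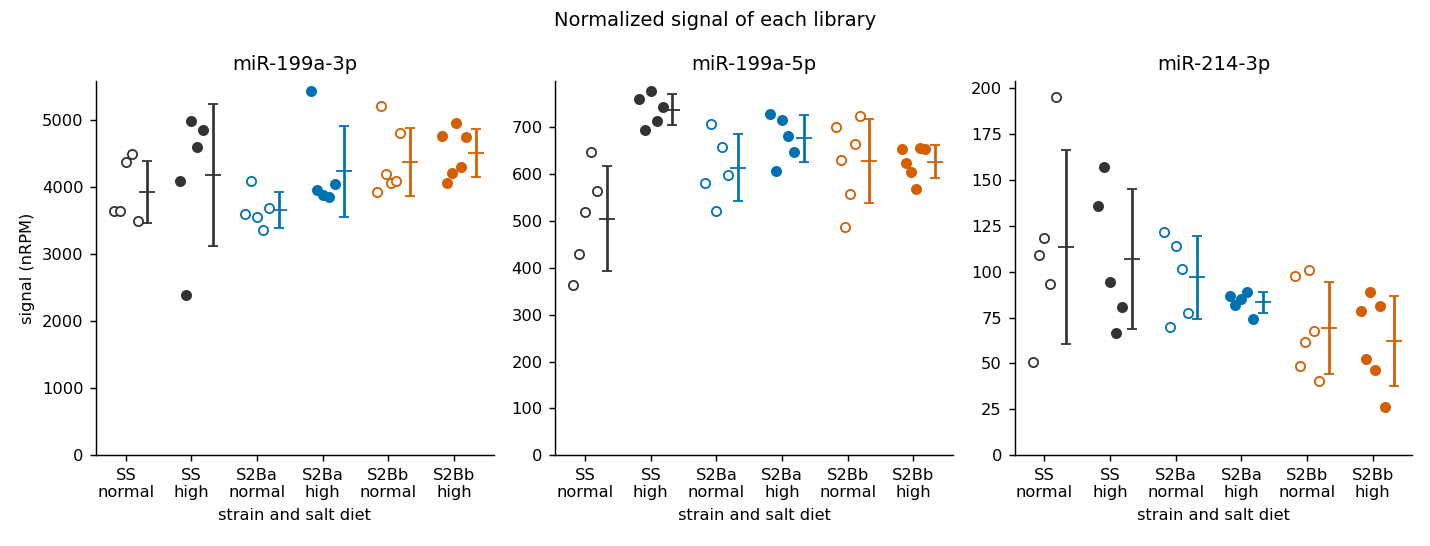
Normalized signal (nRPM) of miR-199a-3p, miR-199a-5p and miR-214-3p in each of the 32 libraries, by strain and salt diet; open points are normal salt, filled points high salt, and the bars beside them show the mean ± SD of the group. The 5 SS high-salt libraries lie above the 5 SS normal-salt libraries for miR-199a-5p, while for miR-214-3p the groups overlap widely and the S2Bb means are lowest.

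miR-199a-5p was higher on high salt in SS aorta. On normal salt, SS replicates 2 to 6 had 362, 430, 520, 648 and 563 nRPM of miR-199a-5p. On high salt, SS replicates 1, 2, 4, 5 and 6 had 759, 695, 777, 713 and 742 nRPM. Every high-salt library analysed was above every normal-salt library analysed, which held in 1 direction or the other for 1.24% of all microRNAs tested (6 of 484). The high-salt libraries also lay closer together. The identical library that was left out, labelled both SS and S2Ba on normal salt, had 721 nRPM, inside the SS high-salt range. The group means were 505 ± 112 and 737 ± 33.6 nRPM (SD, n = 5 each). On the log2(nRPM + 1) scale the difference was 0.57 ± 0.13 (SE), or 1.49-fold (95% interval 1.24 to 1.79), with a limma adjusted p of 0.0308, the smallest p of the 484 microRNAs tested. With the identical library counted as SS, the difference was 0.48 and was not called (limma adjusted p = 0.0622).

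The other products of the cluster were not called for diet in SS. In SS the 5 normal-salt libraries had 3640, 3651, 4373, 4493 and 3498 nRPM of miR-199a-3p, and the 5 high-salt libraries had 4096, 2395, 4993, 4602 and 4858 nRPM. The high-salt group contained both the lowest and the highest of these 10 values, and the lowest belonged to the shallowest library. The log2 difference was 0.05 ± 0.15 (SE; limma adjusted p = 0.900), with a 95% interval of -0.25 to 0.35. This value was 0.24 without SS high-salt replicate 2 (adjusted p = 0.309), 0.20 without both shallow libraries, 0.25 under total-read scaling, 0.13 in edgeR and 0.24 in limma-voom (adjusted p = 0.332). It was -0.02 without SS high-salt replicate 4. For miR-214-3p the normal-salt libraries had 50.8, 109, 118, 93.3 and 195 nRPM and the high-salt libraries 136, 157, 94.4, 66.5 and 80.6 nRPM, with the groups overlapping over most of their ranges. Its log2 difference was -0.03 ± 0.31 (SE; limma adjusted p = 0.984). The sign of this small miR-214-3p difference was positive under total-read scaling (0.16), under trimmed-mean scaling (0.02) and without both shallow libraries (0.04).

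One of the 3 members was thus called for diet in SS, against 1.03% of all microRNAs tested (5 of 484). At an unadjusted p under 0.05 the count over all microRNAs was 90, and edgeR and DESeq2 on the recovered reads called 4 and 13. Both of those tools called miR-199a-5p, at 0.60 (edgeR adjusted p = 0.00269) and 0.52 (DESeq2 adjusted p = 0.000215). The limma call was lost, at an unchanged log2 difference of 0.57, when the SS libraries were fitted without the other strains (adjusted p = 0.498), and also under total-read scaling (0.77, adjusted p = 0.0917). It was lost without SS normal-salt replicate 2 (adjusted p = 0.149) or 4 (0.0946), and without SS high-salt replicate 1 (0.0922), 5 (0.0590) or 6 (0.0681), while without both shallow libraries it held (0.64, adjusted p = 0.0328).

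In S2Ba aorta no member was called for diet. miR-199a-5p was 582, 707, 521, 656 and 599 nRPM on normal salt (replicates 1, 2, 3, 5 and 6) and 729, 606, 716, 680 and 648 nRPM on high salt (replicates 1, 3, 4, 5 and 6). The ranges overlapped and the log2 difference was 0.14 ± 0.13 (SE; limma adjusted p = 0.775). miR-199a-3p was 3608, 4100, 3561, 3363 and 3690 nRPM on normal salt and 5434, 3957, 3886, 3857 and 4050 nRPM on high salt, where replicate 1 stood far above the other 4. The log2 difference of miR-199a-3p was 0.20 ± 0.15 (SE; limma adjusted p = 0.718). miR-214-3p was 121, 70.1, 114, 101 and 77.5 nRPM on normal salt and 86.5, 81.7, 84.9, 89.1 and 74.3 nRPM on high salt, where the libraries were tightly grouped. Its log2 difference was -0.19 ± 0.31 (SE; limma adjusted p = 0.933). Of all microRNAs tested, 0.826% were called for diet in S2Ba (4 of 484, with 55 at an unadjusted p under 0.05, 3 called by edgeR and 14 by DESeq2).

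In S2Bb aorta the members were likewise not called. miR-199a-5p had a lowest value of 488, a median of 647 and a highest value of 723 nRPM on normal salt, and 568.1, 638 and 655 nRPM on high salt. Both diets gave nearly the same mean, 627 ± 89.6 and 626 ± 35.3 nRPM (SD, n = 6 each), and the log2 difference was 0.01 ± 0.12 (SE; limma adjusted p = 0.972; 95% interval -0.23 to 0.25). miR-199a-3p ran from 3936 over a median of 4146 to 5214 nRPM on normal salt and from 4069 over 4533 to 4959 nRPM on high salt. The ranges of miR-199a-3p overlapped almost wholly, and its log2 difference was 0.04 ± 0.14 (SE; limma adjusted p = 0.900). miR-214-3p ran from 40.3 over a median of 64.5 to 101 nRPM on normal salt and from 26.5 over 65.4 to 88.9 nRPM on high salt. The log2 difference of miR-214-3p was -0.19 ± 0.28 (SE; limma adjusted p = 0.825). In this strain 5.99% of all microRNAs tested were called for diet (29 of 484, with 77 at an unadjusted p under 0.05, 35 called by edgeR and 41 by DESeq2). The 0 of 3 members called lies near that share and is not read as a result about them.

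Averaged over the 3 strains, miR-199a-5p was higher on high salt by 0.24 ± 0.07 on the log2 scale (SE; limma adjusted p = 0.0264), or 1.18-fold (95% interval 1.07 to 1.31). The diet comparison in SS contributes to this average, so the pair are not separate evidence. miR-199a-3p differed by 0.10 ± 0.08 (SE; limma adjusted p = 0.472) and miR-214-3p by -0.13 ± 0.17 (SE; limma adjusted p = 0.661). One of 3 members was called here against 13.4% of all microRNAs tested (65 of 484). The miR-199a-5p call was lost without S2Ba normal-salt replicate 3 (0.22, adjusted p = 0.0537) and when the identical library was counted as SS (0.21, adjusted p = 0.0718).

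The diet responses themselves were compared between strains. The miR-199a-5p response of S2Bb was below that of SS by 0.56 ± 0.18 on the log2 scale (SE, coded S2Bb minus SS as -0.56; limma adjusted p = 0.230), the fifth smallest p of the 484 tested. The response of S2Ba minus that of SS was -0.43 ± 0.19 (SE; limma adjusted p = 0.620), and that of S2Bb minus S2Ba was -0.14 ± 0.18 (SE; limma adjusted p = 0.954). These differences did not pass the threshold in limma, so a diet effect on miR-199a-5p particular to SS was not shown. For S2Bb minus SS the difference passed in DESeq2 (-0.57, adjusted p = 0.00759) and in limma-voom with sample weights (-0.60, adjusted p = 0.0373), but not in edgeR (-0.61, adjusted p = 0.0535).

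For miR-199a-3p the 3 differences of responses lay between -0.15 and 0.15, and for miR-214-3p between -0.16 and -0.00, with SEs of 0.20 to 0.44. None was called in limma. The background was 0% of microRNAs called for S2Ba minus SS (36 at an unadjusted p under 0.05, 0 called by edgeR and 3 by DESeq2), 0.413% for S2Bb minus SS (2 of 484, with 46, 3 and 7), and 0% for S2Bb minus S2Ba (20 at an unadjusted p under 0.05, 0 called by edgeR and 1 by DESeq2).

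**Figure D2:**
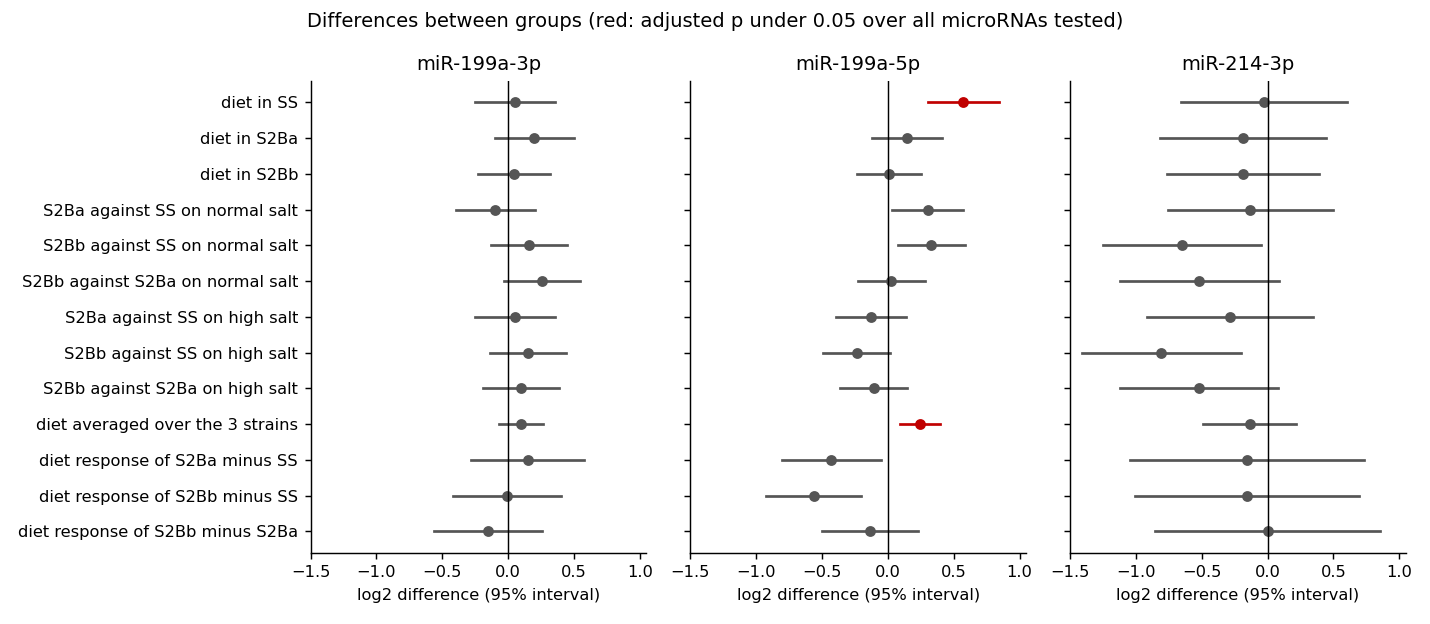
Log2 differences of the 3 microRNAs in the 13 comparisons, as points with 95% intervals from limma on log2(nRPM + 1); red marks an adjusted p under 0.05 over the 484 microRNAs tested. Both red points belong to miR-199a-5p, for diet in SS and for diet averaged over the 3 strains, and the intervals of miR-214-3p are the widest.

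On normal salt, the congenic strains had more miR-199a-5p than SS, but not beyond the threshold. Mean signal was 505 ± 112 nRPM in SS (SD, n = 5), 613 ± 71.4 in S2Ba (SD, n = 5) and 627 ± 89.6 in S2Bb (SD, n = 6). The log2 difference from SS was 0.30 ± 0.13 for S2Ba (SE; limma adjusted p = 0.255) and 0.33 ± 0.13 for S2Bb (SE; limma adjusted p = 0.249). The S2Ba value was 0.52 under total-read scaling (adjusted p = 0.191), and without SS normal-salt replicate 2 the S2Ba and S2Bb values were 0.19 and 0.22. These comparisons and the diet comparison in SS use the same 5 SS normal-salt libraries, 2 of which, replicates 2 and 3, had the lowest miR-199a-5p of all 32. miR-199a-3p differed from SS by -0.10 ± 0.15 in S2Ba (SE; limma adjusted p = 0.841) and by 0.16 ± 0.14 in S2Bb (SE; limma adjusted p = 0.690); under total-read scaling the S2Ba value was 0.12. Of the microRNAs tested, 0.413% were called for S2Ba against SS (2 of 484) and 0.826% for S2Bb against SS (4 of 484), and none of the 3 members was among them by limma (73 and 53 of the 484 had an unadjusted p under 0.05; edgeR called 3 and 5, DESeq2 18 and 11).

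miR-214-3p was lowest in S2Bb on both diets. On normal salt the group means were 113 ± 52.6 nRPM in SS (SD, n = 5), 96.8 ± 22.4 in S2Ba (SD, n = 5) and 69.4 ± 25.01 in S2Bb (SD, n = 6). The log2 difference of S2Bb from SS was -0.65 ± 0.30 (SE; limma adjusted p = 0.397), and that of S2Ba was -0.13 ± 0.31 (SE; limma adjusted p = 0.873), a value that turned to 0.10 without both shallow libraries and to 0.08 under total-read scaling. S2Bb differed from S2Ba by -0.52 ± 0.30 (SE; limma adjusted p = 0.381). The identical library had 31.95 nRPM, and counted as SS it took the difference of S2Bb from SS to -0.37 (adjusted p = 0.718), while counted as S2Ba it took that from S2Ba to -0.26 (adjusted p = 0.790). Without SS normal-salt replicate 6 the difference of S2Bb from SS was -0.42. All ranges overlapped.

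On high salt, miR-214-3p was 107 ± 38.2 nRPM in SS (SD, n = 5), 83.3 ± 5.69 in S2Ba (SD, n = 5) and 62.3 ± 24.4 in S2Bb (SD, n = 6). The S2Bb level was 0.572-fold that of SS (95% interval 0.377 to 0.868), a log2 difference of -0.81 ± 0.30 (SE; limma adjusted p = 0.300). It was not called by limma, edgeR (-0.80, adjusted p = 0.230) or DESeq2 (-0.79, adjusted p = 0.0979). Without both shallow libraries the difference was -0.65 (adjusted p = 0.616). S2Ba differed from SS by -0.29 ± 0.31 (SE; limma adjusted p = 0.694), and S2Bb from S2Ba by -0.52 ± 0.30 (SE; limma adjusted p = 0.665). The value of S2Ba against SS was -0.13 without SS high-salt replicate 2, -0.18 without replicate 1, -0.44 without replicate 5 and -0.03 in limma-voom, and that of S2Bb against S2Ba was -0.30 without S2Bb high-salt replicate 6.

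The miR-199a arms were also compared between strains on high salt. For miR-199a-5p every S2Bb value, at most 655 nRPM, was below every SS value, at least 695 nRPM. The log2 difference was nevertheless small, at -0.24 ± 0.13 (SE; limma adjusted p = 0.415). S2Ba had 676 ± 50.04 nRPM (SD, n = 5), overlapping both, and differed from SS by -0.13 ± 0.13 (SE; limma adjusted p = 0.675) and from S2Bb, coded S2Bb minus S2Ba, by -0.11 ± 0.13 (SE; limma adjusted p = 0.815). For miR-199a-3p the 3 strain differences on high salt were 0.05, 0.10 and 0.15 on the log2 scale, with limma adjusted p-values from 0.590 to 0.916. Its S2Ba and S2Bb differences from SS became -0.14 and -0.04 without both shallow libraries, and -0.15 and -0.07 in limma-voom. One of the shallow libraries, SS high-salt replicate 2, held the lowest miR-199a-3p of all libraries.

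The high-salt ranges of S2Bb and SS were apart for 1 of the 3 members and for 1.24% of all microRNAs tested (6 of 484), and 0% were called in that comparison (56 of 484 had an unadjusted p under 0.05, and edgeR and DESeq2 called 0 each). For S2Ba against SS on high salt 0.207% were called (1 of 484, with 82 at an unadjusted p under 0.05, 1 called by edgeR and 30 by DESeq2). For S2Bb against S2Ba on high salt 0% were called (44 at an unadjusted p under 0.05, 0 by edgeR and 7 by DESeq2), and on normal salt 3.51% (17 of 484, with 78 at an unadjusted p under 0.05, 26 called by edgeR and 36 by DESeq2). No member was called by limma in any of the 4. The remaining differences of S2Bb from S2Ba on normal salt were 0.25 ± 0.14 for miR-199a-3p (SE; limma adjusted p = 0.381), which was 0.07 under total-read scaling, and 0.03 ± 0.13 for miR-199a-5p (SE; limma adjusted p = 0.921), the latter negative under total-read scaling (-0.16).

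The order of the 6 groups differed between the members. miR-199a-3p was highest in S2Bb on high salt (4511 ± 362 nRPM, SD, n = 6), followed by S2Bb on normal salt, S2Ba on high salt, SS on high salt, SS on normal salt and S2Ba on normal salt (3664 ± 271 nRPM, SD, n = 5). miR-199a-5p ran from SS on high salt over S2Ba on high salt, S2Bb on normal salt, S2Bb on high salt and S2Ba on normal salt to SS on normal salt. miR-214-3p fell from SS on normal salt over SS on high salt, S2Ba on normal salt, S2Ba on high salt and S2Bb on normal salt to S2Bb on high salt. Neighbours in these orders differed by less than the larger of their SDs, with 1 exception: miR-199a-5p in SS on high salt was 61.5 nRPM above S2Ba on high salt, whose SD was 50.04 nRPM, and even these ranges overlapped.

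The balance of the miR-199a arms could be read within each library, where the scaling of the library cancels. Reads of a mature sequence do not tell loci apart, so this balance need not be that of the Mir199a2 hairpin alone. Base composition need not cancel, since the G and C content is 40.9% for miR-199a-3p and 52.2% for miR-199a-5p. The part of base composition in the ratios was not tested. The median library had 6.53 times as much miR-199a-3p as miR-199a-5p, with a lowest ratio of 3.44 in SS high-salt replicate 2 and a highest of 10.02 in SS normal-salt replicate 2. In SS on normal salt the ratios of replicates 2 to 6 were 10.02, 8.47, 8.40, 6.93 and 6.20, and on high salt those of replicates 1, 2, 4, 5 and 6 were 5.39, 3.44, 6.42, 6.45 and 6.54. All but 1 of the normal-salt ratios were above all of the high-salt ratios. The mean log2 ratio was 2.98 ± 0.27 on normal salt and 2.46 ± 0.39 on high salt (SD, n = 5 each), a difference of -0.52 ± 0.21 (SE; exact two-sided permutation p = 0.0317). After adjustment over the 27 ratio tests the p was 0.214. Without SS high-salt replicate 2 the difference was -0.35.

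In the congenic strains the arm ratio differed between diets by less than its error, and the log2 difference was 0.06 ± 0.11 in S2Ba (SE; exact permutation p = 0.619) and 0.04 ± 0.12 in S2Bb (SE; exact permutation p = 0.775). On high salt the log2 ratio was higher in S2Bb than in SS by 0.39 ± 0.17 (SE; exact permutation p = 0.00433, adjusted p = 0.117), and by 0.22 without SS high-salt replicate 2. On normal salt it was lower in S2Ba than in SS by 0.40, coded S2Ba minus SS as -0.40 ± 0.14 (SE; exact permutation p = 0.0159, adjusted p = 0.214). The ranges overlapped in each case. With 5 against 5 libraries the smallest p this test can give is 0.00794, and with 6 in a group it is 0.00216.

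miR-214-3p against the miR-199a arms varied over a wider range. Its ratio to miR-199a-5p had a median of 0.129, from 0.0419 in S2Bb high-salt replicate 6 to 0.348 in SS normal-salt replicate 6, and its ratio to miR-199a-3p had a median of 0.02003, from 0.00577 to 0.0660. The largest group difference in these ratios was that of miR-214-3p to miR-199a-5p between S2Bb and SS on normal salt, -0.98 ± 0.35 on the log2 scale (SE; exact permutation p = 0.0238, adjusted p = 0.214). It was -0.61 with the identical library counted as SS. Of the 27 ratio tests none had an adjusted p under 0.05, and 4 had an unadjusted exact p under 0.05.

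**Figure D3:**
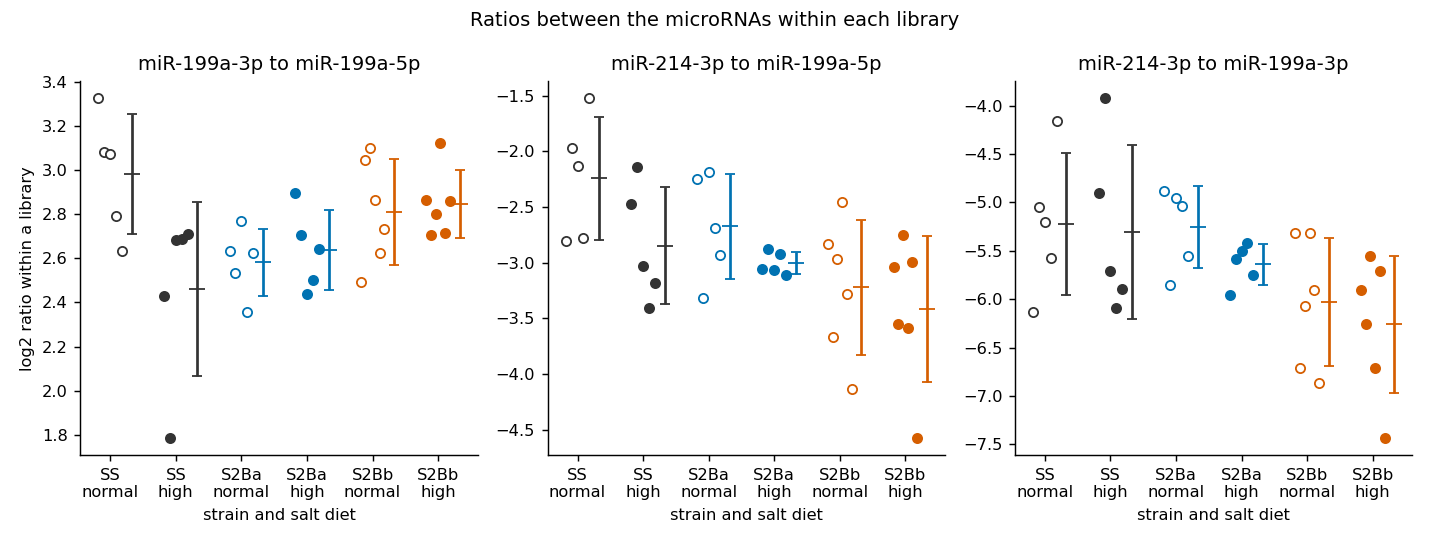
Log2 ratios between the 3 microRNAs within each library, by strain and diet, with the mean ± SD of each group beside its points; open points are normal salt and filled points high salt. The miR-199a-3p to miR-199a-5p ratio in SS has a mean of 2.98 on normal salt and 2.46 on high salt, with SS high-salt replicate 2 lowest of all at 1.78, and the miR-214-3p ratios are lowest in S2Bb.

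The correlations between the miR-199a arms, and between miR-199a-5p and miR-214-3p, did not pass the adjusted threshold. On log2(nRPM + 1) values, miR-199a-3p and miR-199a-5p had a Pearson r of 0.27 over the 32 libraries (permutation p = 0.133, adjusted over 9 relations 0.2002) and a Spearman rho of 0.36 (permutation p = 0.0434, adjusted 0.130). Without the libraries farthest in miR-199a-3p, which were replicate 2 of SS and replicate 1 of S2Ba on high salt, r was 0.42, without both shallow libraries it was 0.44, and with each library centred on its group mean it was 0.30. For miR-199a-5p and miR-214-3p r was 0.02 (permutation p = 0.930) and rho -0.04 (permutation p = 0.827), and r was -0.08 without the 2 farthest libraries.

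miR-199a-3p and miR-214-3p were negatively correlated over the libraries. Their Pearson r was -0.54 (permutation p = 0.00176, adjusted p = 0.00792) and their Spearman rho -0.52 (permutation p = 0.00254, adjusted p = 0.0114). The Pearson r was -0.54 without the 2 libraries farthest in miR-199a-3p, -0.45 when each library was centred on its group mean, and -0.42 without both shallow libraries. The permutations shuffled libraries without regard to group, and no p was computed for these further values. Both shallow SS libraries had low miR-199a-3p, at 2395 and 3498 nRPM, and the highest miR-214-3p values of all, at 157 and 195 nRPM.

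Base composition and depth moved with the same values. A composition index was computed for each library from microRNAs other than the members, as the median log2 deviation of 17 names with at least 55% G and C minus that of 25 names with at most 40%. It ran up to 1.97 in SS high-salt replicate 2 and 0.678 in SS normal-salt replicate 6, and in the other libraries it lay between -0.64 and 0.22. miR-199a-3p, at 40.9% G and C, fell as the index rose, with an r of -0.73 (permutation p = 6e-05, adjusted p = 0.00054) and a rho of -0.58 (permutation p = 0.00067, adjusted p = 0.00603). Without those 2 libraries r was -0.42, and with each library centred on its group mean it was -0.81. miR-199a-5p, whose composition lies between those of the other members, had an r of 0.10 (permutation p = 0.569) and a rho of 0.16 (permutation p = 0.375). miR-214-3p, at 61.9%, had an r of 0.37 (permutation p = 0.0442, adjusted p = 0.0795) and a rho of 0.29 (permutation p = 0.110), and r was -0.01 without the 2 libraries.

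Depth, as log10 of the reads, had an r of 0.54 with miR-199a-3p (permutation p = 0.00775, adjusted p = 0.0232) and a rho of 0.14 (permutation p = 0.431). That relation rested on the 2 shallow libraries, since r was -0.04 without them. The r with depth was -0.41 for miR-214-3p (permutation p = 0.0260, adjusted p = 0.0585; rho -0.23, permutation p = 0.198), again -0.04 without the same libraries, and 0.02 for miR-199a-5p (permutation p = 0.918; rho 0.02, permutation p = 0.896; 0.13 without them). Between the SS diet groups the index overlapped, from -0.64 to 0.678 on normal salt and from -0.23 to 1.97 on high salt. The part of composition and depth in the group differences was not tested. Without both shallow libraries the miR-199a-5p difference for diet in SS was 0.64.

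**Figure D4:**
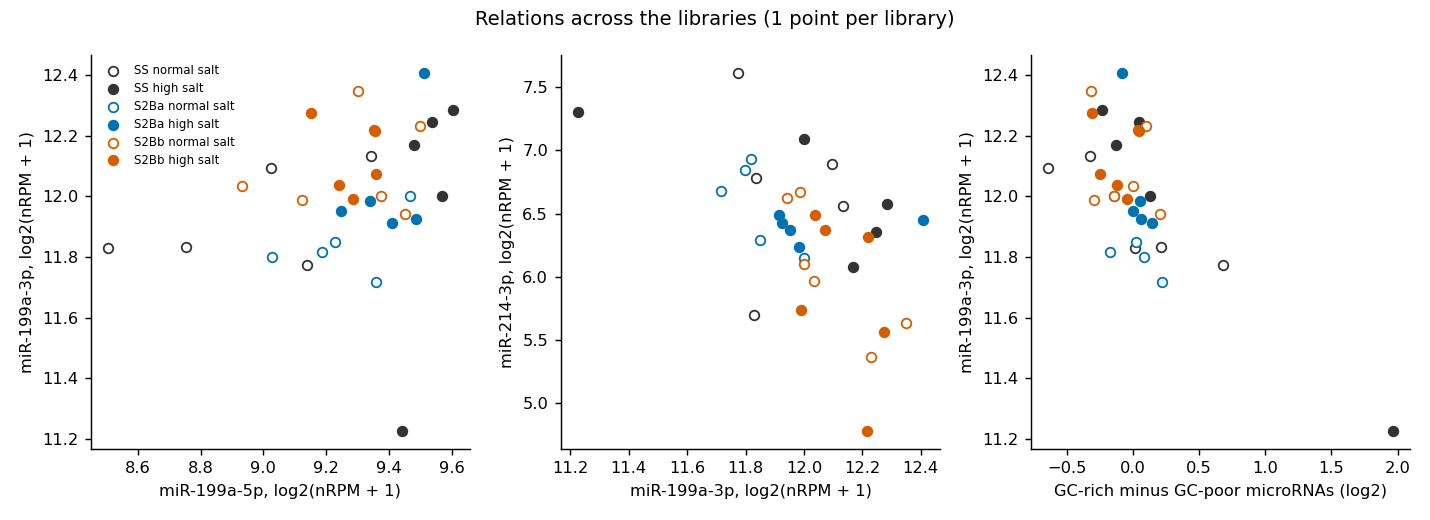
Relations across the 32 libraries, 1 point per library coloured by strain and filled for high salt: miR-199a-3p against miR-199a-5p, miR-214-3p against miR-199a-3p, and miR-199a-3p against the composition index, all as log2 values. The arms scatter widely (r = 0.27), miR-214-3p declines as miR-199a-3p rises (r = -0.54), and SS high-salt replicate 2 stands alone at an index of 1.97 with the lowest miR-199a-3p.

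The microRNAs whose profiles were most like each member were found among the other microRNAs with a mean of at least 10 nRPM, by Pearson r over the 32 libraries on the log2 scale, as a description. For miR-199a-3p they were the unnamed small RNA miR-n237 (r = 0.75), the smooth muscle microRNA miR-145-3p (0.73), miR-872-5p (0.73), miR-218a-5p (0.72) and miR-3068-3p (0.71). Its own partner miR-199a-5p came 73rd of the 200 candidates and miR-214-3p 192nd. For miR-199a-5p they were miR-330-5p (0.70), miR-16-5p (0.56), miR-22-3p (0.55), miR-191a-5p (0.54) and miR-425-5p (0.53). For miR-214-3p they were miR-664-3p (0.80), miR-30c-5p (0.75), let-7b-5p (0.71), let-7e-5p (0.69) and miR-145-5p (0.69). No member was among the 5 nearest of another. All these values share the libraries, their depth and their composition index.

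Other microRNAs linked to fibrosis in the literature were read beside the cluster, from a list of 20 names chosen with earlier results of these data known. Of these 19 were in the table and 16 were tested. None was called by limma for diet in SS, where their median log2 difference was 0.16 against -0.02 over all tested. In S2Ba, where 0.826% of all microRNAs tested were called, 1 of the 16 was higher, miR-132-3p (1.70), a microRNA induced by neuronal activity and by angiotensin signalling. In S2Bb, with 5.99% called over all, 3 of the 16 were called: miR-132-3p was higher (1.48), and miR-192-5p (-0.64) and miR-26a-5p (-0.58) were lower.

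Averaged over the strains, 7 of the 16 were called higher on high salt and 1 was called lower. Called or not, 12 of the 16 were higher and 4 lower, with a median of 0.26 against -0.02 over all tested. Over all microRNAs 13.4% were called in this comparison, 37 higher and 28 lower of 484. The 5 with the smallest p were miR-132-3p (1.33), miR-22-3p (0.44), miR-192-5p (-0.46), miR-140-5p (0.38) and miR-21-3p (0.93), and the limma adjusted p-values of the 8 ran from 8.2e-05 to 0.0477. The miR-199a-5p difference of 0.24 was below that of each of the 7 called higher.

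A list of 21 microRNAs abundant in mesenchymal cells, of which 13 were tested, gave no call for diet in any strain by limma, with medians of 0.01 in SS, -0.21 in S2Ba and 0.11 in S2Bb. Averaged over the strains, 2 of the 13 were called, near the 13.4% over all microRNAs: miR-140-5p rose (0.38) and miR-10b-5p fell (-0.46). Of these, miR-140-5p is also on the fibrosis list and was already counted there. The summed signal of these 21 ran from 95569 to 221975 nRPM in SS on normal salt and from 85513 to 94907 on high salt, so the high-salt sums lay below the normal-salt sums. In S2Ba they were also apart, and the sums ran from 90125 to 125797 nRPM on normal salt and from 62496 to 88185 on high salt, and in S2Bb they overlapped, from 68984 to 102582 and from 43552 to 121206. Most of each sum was miR-10b-5p, at a mean of 88787 nRPM, so the sums do not stand for the list. Of the 13 tested, 9 were higher and 4 lower on high salt in SS, and 6 were higher and 7 lower in S2Ba. Ranges were apart between the diets for 1.24% of single microRNAs in SS (6 of 484), a share not computed for S2Ba.

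Markers of other cell types were compared over the SS diet groups, in which miR-199a-5p was called. The summed smooth muscle markers (4 of 4 in the table) ran from 483994 to 718198 nRPM on normal salt and from 237274 to 637106 on high salt. The endothelial markers (2 of 2) ran from 1441 to 2757 and from 793 to 2726 nRPM, the white blood cell markers (5 of 5) from 194 to 481 and from 238 to 323 nRPM, and the red blood cell markers (3 of 4) from 4.26 to 14.1 and from 5.33 to 23.5 nRPM. Striated muscle markers (7 of 7) ran from 537 to 744 and from 629 to 1576 nRPM, fat markers (2 of 2) from 771 to 1958 and from 881 to 1618 nRPM, and nerve markers (6 of 6) from 38.0 to 72.9 and from 55.5 to 71.9 nRPM. Most of the smooth muscle sum was miR-143-3p (mean 551217 nRPM), and most of the endothelial sum was miR-126a-5p (2167 nRPM). The red blood cell sum was mostly miR-451-5p (11.8 nRPM), the striated muscle sum miR-133a-3p (603 nRPM) and the fat sum miR-378a-3p (1224 nRPM). These sums do not stand for their lists. All 7 sums overlapped between the diets, and none of these lists had a member called by limma in SS. Most microRNAs did the same, since 1.24% of the 484 tested had ranges apart in SS and 1.03% were called. On high salt in SS, 0 of 5 white blood cell, 0 of 2 endothelial, 2 of 4 smooth muscle and 1 of 2 fat markers were higher. Of those tested, 2 of 3 red blood cell, 1 of 3 striated muscle and 3 of 4 nerve markers were higher. The part of these markers in the miR-199a-5p difference was not tested further.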

How the data were processed

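Small RNA libraries were made from 1 microgram of total RNA of integrity number 8 or higher and read as single 51-base reads with a target of 30 M per sample, per the labels' protocols. Per the submitters' processing notes, the tools included STAR 2.3.1, edgeR 3.6.8, bcl2fastq 1.8.4, R 3.2.3 and FastQC. What each did, and the build, the annotation of microRNAs and the scaling, were not given in the sources used. The table that the authors deposited holds a normalized signal on a linear scale for every microRNA in every library. In each column 100% of values were whole multiples of 1 step (tolerance 1e-06), which gave whole reads, and columns summed to 0.726 to 1.30 M.

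Because the deposited signal is normalized, the 484 microRNAs that reached 1 nRPM in 5 or more libraries were fitted as log2(nRPM + 1) with limma 3.58.1 (R 4.3.3), with all 6 groups in 1 model and an intensity trend. This scale understates the change of low microRNAs. MicroRNAs were called at an adjusted p under 0.05, with Benjamini-Hochberg adjustment over all 484. Intervals are at the 95% level. Within-library ratios were tested by exact two-sided permutation of libraries, adjusted over 27 tests, and relations across libraries with 100000 permutations, adjusted over 9. The permutations for the relations shuffled libraries without regard to group. The composition index was chosen after the data were seen; 131 of 150 names (87.3%) had a RefSeq sequence. RefSeq sequences matched 518 of the 576 miRBase-style names.

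Alternatives were total-read, RLE and TMM scaling, pseudocounts of 0.1 and 10, other filters, edgeR 4.0.16 and DESeq2 1.42.0 on recovered reads, limma-voom with sample weights, fits of the compared groups alone, the identical library counted in either group, and leaving out libraries. Of the fits, only limma was tested on simulated data, with changes larger than the member differences reported here. The edgeR, DESeq2 and limma-voom fits were not tested in this way. The members and the lists were chosen with earlier results of these data known. The rule for naming covered the 3 members in each comparison, their other arm and relatives, and for the lists the called members with the smallest p.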

Additional observations from a re-analysis of the deposited data

Results flagged for a closer look

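In 36 sets of 5 or 6 libraries, 1 for each group and each of the 3 signals and 3 ratios, the highest and the lowest library were set against Dixon's 95% limit, which chance passes in about 1 of 20 groups. A single value passed. The miR-199a-3p signal of S2Ba high-salt replicate 1 was 5434 nRPM, far above the other 4 libraries of that group, which lay between 3857 and 4050 nRPM. Its miR-199a-5p signal, 729 nRPM, was the highest of the group but close to the next, 716 nRPM, and its miR-214-3p signal, 86.5 nRPM, lay inside the group's range.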

How the results depend on the processing

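Of 543 alternative values of the 39 member differences, 502 kept their direction and their side of the threshold, 5 lost a call, 2 gained one and 34 changed sign. None of the sign changes concerned a called result or gave a call, and the largest value after one was 0.25 in size. Of 135 alternative values of the ratio differences, 130 kept both and 5 changed sign. Where a result below changed, the cause was not tested. Total-read scaling moved the median of all microRNAs by -0.13 in SS on normal salt and by 0.04 in SS on high salt.

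The miR-199a-5p difference for diet in SS was called in 10 of 14 alternatives other than leaving out a library (0.48 to 0.77). It was not called under total-read scaling (0.77), with SS alone (0.57), or with the identical library counted as SS (0.48, adjusted p = 0.0622) or as S2Ba (0.57, adjusted p = 0.0548). Leaving out each replicate in turn gave 0.46 to 0.67, with 5 of 10 fits called. The averaged miR-199a-5p difference was called in 12 of 13 alternatives, the exception being the identical library counted as SS (0.21), and in 31 of 32 fits without a replicate (0.21 to 0.28). The S2Bb minus SS response of miR-199a-5p was called by DESeq2 (-0.57) and limma-voom (-0.60) and by none of the other 12 alternatives.

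The sign changes all concerned differences that were not called. Under total-read scaling miR-214-3p was 0.16 for diet in SS and 0.083 for S2Ba against SS on normal salt, miR-199a-3p was 0.12 for the latter, and miR-199a-5p was -0.16 for S2Bb against S2Ba on normal salt. The responses changed to -0.051 for miR-199a-3p in S2Ba minus SS and 0.13 for miR-214-3p in S2Bb minus S2Ba. For diet in S2Bb, miR-199a-5p was -0.039 with RLE size factors, -0.0011 with TMM, -0.0084 with edgeR, -0.047 with DESeq2 and -0.00025 with limma-voom, and miR-199a-3p was -0.0032 with RLE and -0.0068 with DESeq2. With TMM miR-214-3p was 0.016 for diet in SS, and miR-199a-5p in S2Bb against S2Ba on normal salt was -0.0043, against -0.013 with limma-voom and -0.014 where the identical library was put in S2Ba. The miR-214-3p response of S2Bb minus S2Ba was 0.0099 with TMM, 0.015 with a pseudocount of 10, 0.067 with edgeR and 0.031 with DESeq2. In limma-voom miR-199a-3p on high salt was -0.15 for S2Ba and -0.074 for S2Bb against SS, and its S2Ba minus SS response was -0.076.

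With the identical library counted as SS, miR-214-3p was 0.25 for diet in SS and 0.15 for S2Ba against SS on normal salt, its log2 ratio to miR-199a-3p was 0.23 and 0.28 in the same comparisons, and the miR-199a-3p response of S2Bb minus SS was 0.030. Counted as S2Ba, it gave 0.071 for miR-214-3p for diet in S2Ba and 0.10 for its S2Ba minus SS response. Without both shallow libraries miR-214-3p was 0.041 for diet in SS and 0.097 for S2Ba against SS on normal salt. On high salt miR-199a-3p was -0.14 for S2Ba and -0.040 for S2Bb against SS, and its S2Ba minus SS response was -0.0024. The log2 ratio of miR-214-3p to miR-199a-5p was then 0.019 for S2Ba against SS on high salt, and that to miR-199a-3p 0.0092 there and 0.23 on normal salt.

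Leaving out each replicate in turn changed signs only among uncalled differences. For diet in SS it gave -0.023 to 0.24 for miR-199a-3p and -0.28 to 0.20 for miR-214-3p, and for diet in S2Bb -0.060 to 0.053 for miR-199a-5p and -0.33 to 0.033 for miR-214-3p. Between strains it gave -0.38 to 0.097 for miR-214-3p in S2Ba against SS and -0.030 to 0.096 for miR-199a-5p in S2Bb against S2Ba on normal salt, and on high salt -0.14 to 0.13 and -0.040 to 0.23 for miR-199a-3p in S2Ba and S2Bb against SS. Responses ranged from -0.043 to 0.22 and -0.20 to 0.068 for miR-199a-3p in S2Ba and S2Bb minus SS, and for miR-214-3p from -0.38 to 0.098, from -0.38 to 0.097 and from -0.14 to 0.22 in S2Ba minus SS, S2Bb minus SS and S2Bb minus S2Ba. The log2 ratio of miR-214-3p to miR-199a-3p ranged from -0.43 to 0.18 for diet in SS, -0.40 to 0.0039 for diet in S2Bb, and -0.26 to 0.23 and -0.53 to 0.0092 for S2Ba against SS on normal and on high salt. That to miR-199a-5p ranged from -0.38 to 0.036 for diet in S2Bb and -0.30 to 0.019 for S2Ba against SS on high salt. The arm ratio of miR-199a ranged from -0.0099 to 0.10 for diet in S2Ba and from -0.028 to 0.094 in S2Bb.

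No paired analysis was possible because the labels give no replicate number that groups share. Each of the 3 members had at least 459 reads in every library, and no member value was limited by a count near 0.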
